A study of Rattus norvegicus with 5 samples.

Results

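Described here are 9 rat immune genes in the insulin-producing INS-1 cell line and in clones made from it: Ifitm1, Icam1, Cxcl10, Sting1, Irf1, B2m, RT1-S3, Psmb8 and Psmb9. They were chosen by name, with earlier results of these arrays known. All 13 probe sets that the platform table assigns to these symbols were taken, of 15866 probe sets on the array. INS-1 is a rat insulinoma line. RNA came from the parental INS-1 line (1 array), from clones 2 and 16 of set 1-1 and from clones 14 and 19 of set 5-3, with 1 array each. A clone's label joins the set name, a point and the clone number, and the meaning of the set names is not given. All 4 clones carry an FRT site, at which Flp recombinase can place a gene, and the tetracycline repressor, which keeps such a gene silent until tetracycline is given. The parental line carries neither. The labels of these 5 samples name no inserted gene and no tetracycline treatment, and whether clones with the same set name have a common origin is not stated there. Each clone is a single clonal line, so a set stands for 2 clones and not for the construct in general.

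Values are the authors' linear signals in arbitrary units, whose median was 342 to 372 per array. The number of arrays limits their precision. A probe set was called bright enough to test when its mean level over the 5 arrays corresponded to a signal of about 194. All 13 probe sets passed this limit, as did 9520 in all, and the parental line served in both comparisons against it. Of the beta cell marker genes all 10 on the array were bright enough to test, with Ins1 at 34381 to 42217, and their summed signal ran from 122003 in clone 16 to 173025 in clone 2, against 172281 in parental INS-1. In each clone set 8 of these 10 were lower than in parental INS-1 (median log2 difference −0.60 in set 1-1 and −0.18 in set 5-3), with 0 called by limma and 1 in each at an unadjusted p under 0.05. Ins2, the other rat insulin gene, read 28816 in parental INS-1, 30224 in clone 2 and 3953 to 5381 in the other 3 clones. The part of these markers in the differences of the immune genes was not tested. Added control RNAs were compared between the parental array and the mean of the clones. The lys control was 3.94-fold brighter on the parental array, and the other 4 poly(A) controls were 1.38-fold to 1.58-fold brighter. The hybridisation controls read 0.784 of the clones' mean level. The spread of these controls among the clones is not given. With a single parental array, how it was handled and what the line expresses cannot be told apart.

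Cells show their internal peptides on MHC class I, a complex of a class I heavy chain (RT1 molecules in the rat) and beta-2-microglobulin. Interferons raise this display: they act through JAK kinases and STAT factors, induce the transcription factor Irf1, and replace catalytic subunits of the proteasome with the inducible subunits Psmb8, Psmb9 and Psmb10. Interferon and NF-kappaB signals also induce chemokines and adhesion molecules that attract and hold leukocytes, a response well known in beta cells exposed to cytokines.

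Promoter sequence is shown for members whose signals lay in opposite order in the clone sets, together with the stretch upstream of Tap1, which lies head to head with Psmb9. RefSeq promoters of build GRCr8 were searched on both strands for the core of the interferon-stimulated response element (ISRE, letters GAAA, any 2 bases, then GAAA), for the gamma-activated site (GAS, letters TTCNNNGAA) and for the NF-kappaB motif, over the 250 bases before each start. Of the 9 genes, 8 were in the table. Ifitm1 was not, so its promoter was not searched. An ISRE core lay in Cxcl10, B2m and RT1-S3, a GAS in Icam1, Irf1 and Psmb8, and an NF-kappaB motif in Cxcl10, B2m and Irf1. None of these motifs lay in Sting1 or Psmb9. The printed members are those with an ISRE core, so Icam1 and Sting1 are not printed. Among 33469 promoters, 3.41% held the ISRE core, 7.67% the GAS and 6.33% the NF-kappaB motif. A match is a stretch of letters, not a shown binding site. The printed stretches end where the annotated gene begins, and capitals mark the motif matches: the ISRE core comes first in Cxcl10, B2m and Tap1 and stands alone in RT1-S3 (read on the opposite strand in Tap1 and RT1-S3), and the other capitals are NF-kappaB matches, of which a pair overlaps in Cxcl10. They are chr14:15988816-15989065 (plus strand), chr3:129549080-129549235 (plus), chr20:2675278-2675462 (plus) and chr20:4668544-4668793 (minus), each written 5′ to 3′ in the direction of its gene. The Tap1 stretch lies in the 408 bases between the Tap1 and Psmb9 gene models.
Cxcl10: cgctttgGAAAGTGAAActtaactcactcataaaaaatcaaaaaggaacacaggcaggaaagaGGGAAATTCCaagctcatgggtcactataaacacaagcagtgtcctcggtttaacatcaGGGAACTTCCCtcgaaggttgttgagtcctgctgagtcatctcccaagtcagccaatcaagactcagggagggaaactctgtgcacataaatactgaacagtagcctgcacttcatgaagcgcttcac
B2m: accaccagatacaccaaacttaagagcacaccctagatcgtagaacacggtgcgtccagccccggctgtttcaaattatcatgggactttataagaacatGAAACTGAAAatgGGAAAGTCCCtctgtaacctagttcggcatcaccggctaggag
RT1-S3: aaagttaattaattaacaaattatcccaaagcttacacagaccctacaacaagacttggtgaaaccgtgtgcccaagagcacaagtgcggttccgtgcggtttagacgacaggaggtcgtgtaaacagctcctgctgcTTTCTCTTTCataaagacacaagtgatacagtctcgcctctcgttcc
Tap1: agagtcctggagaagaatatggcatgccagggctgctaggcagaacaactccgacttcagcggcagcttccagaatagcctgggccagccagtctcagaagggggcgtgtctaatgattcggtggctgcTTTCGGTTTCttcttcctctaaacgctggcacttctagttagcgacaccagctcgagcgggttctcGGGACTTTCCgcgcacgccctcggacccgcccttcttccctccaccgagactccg

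Ifitm1, Icam1, Cxcl10 and Sting1 had more signal in both 1-1 clones than in both 5-3 clones, and of these Ifitm1 passed the test. Ifitm1 encodes a membrane protein that restricts virus entry. It read 237.5 in parental INS-1, 464.2 in clone 2, 694 in clone 16, 88.2 in clone 14 and 93.9 in clone 19. The sets did not overlap, both 1-1 clones lay above the parental signal and both 5-3 clones below it. The 5-3 signals were under the brightness limit, and whether they exceed background is not known, because no detection calls were used. Set means were 579 ± 162 and 91.05 ± 4.03 (SD, n = 2 each), and the signal fell by 2.39 on the log2 scale from set 1-1 to set 5-3 (SE 0.31, limma adjusted p = 0.0434 over all 9520 probe sets), and was lower in 2 of 2 clones. The size depends on the offset of 21.8 added to every signal before taking logs: it was −1.88 with an offset 4 times larger and −2.57 with one 4 times smaller, and both fits called it. Without clone 16 Ifitm1 was too dim to be tested, so Ifitm1 was bright enough to test only through set 1-1, where it is high. The limma adjusted p ranged from 0.0282 to 0.126 over the alternatives that kept all arrays and tested Ifitm1. The call ended when dim probe sets were kept (limma adjusted p = 0.126). Neither the difference of set 1-1 nor that of set 5-3 from the parental line passed (limma adjusted p = 0.506 and 0.460). In bulk RNA, fewer cells with the transcript and less transcript per cell cannot be told apart.

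Icam1 encodes intercellular adhesion molecule 1, the ligand by which leukocyte integrins hold a cell. It read 89.0 in parental INS-1, 662.4 in clone 2, 1020.7 in clone 16, 170.7 in clone 14 and 17.1 in clone 19. Both 1-1 clones were far above the other 3 arrays, while the 5-3 clones lay on opposite sides of the parental signal. All 3 of those other signals were under the brightness limit, so Icam1 was bright enough to test only through set 1-1, and it was not tested when either 1-1 clone was left out. The log2 difference between the sets was −3.29 ± 0.71 (SE) and did not pass (limma adjusted p = 0.123). Its size is not well defined against signals that may be background. Single clones moved it: without clone 14 it was −4.44 and without clone 19 it was −2.13. Fits without a 5-3 clone drop the spread between clones 14 and 19, so their calls are not read as support. Over the alternatives that kept all arrays and tested it, the limma adjusted p ranged from 0.0717 to 0.216. The signal of clone 19 was below the offset, and with an offset 4 times larger the difference was −2.47. Against the parental signal, also under the limit, the log2 difference of set 1-1 was 2.93 ± 0.86 (SE) and did not pass (limma adjusted p = 0.484). Fits without a 5-3 clone cannot move that value, since it uses none, so they say nothing of its stability. Over the alternatives that kept all arrays and tested it, the limma adjusted p ranged from 0.357 to 0.561.

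Cxcl10 encodes a chemokine that draws activated T cells. It read 171.6 in parental INS-1, 272.6 and 282.5 in clones 2 and 16, and 160.6 and 134.9 in clones 14 and 19. The sets did not overlap and the parental signal lay between them, but all values were near the brightness limit. The log2 difference between the sets was −0.82 ± 0.29 (SE) and did not pass (limma adjusted p = 0.245).

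Sting1 encodes the adaptor that answers cytosolic DNA by switching on interferon genes. It read 501.4 in parental INS-1, 835.8 in clone 2, 468 in clone 16, 209.5 in clone 14 and 37.4 in clone 19. Both 5-3 clones were below every other array, and clone 16 was near the parental signal. The log2 difference between the sets was −2.47 ± 0.63 (SE), which did not pass (limma adjusted p = 0.164). Without clone 14 it was −3.45 and without clone 19 it was −1.49, in fits that drop the spread between these clones. Over the alternatives that kept all arrays and tested it, the limma adjusted p ranged from 0.131 to 0.253. For Sting1 and Icam1 the sister clones 14 and 19 were more than 2-fold apart after the offset was added, by an amount that the dim signals of clone 19 leave undefined. These were 2 of the 13 probe sets, where 6.59% of all tested probe sets were at least 2-fold apart. Between clones 2 and 16 it was 0 of 13, against 2.67%. These folds compare single arrays and have no test.

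**Figure D1:**
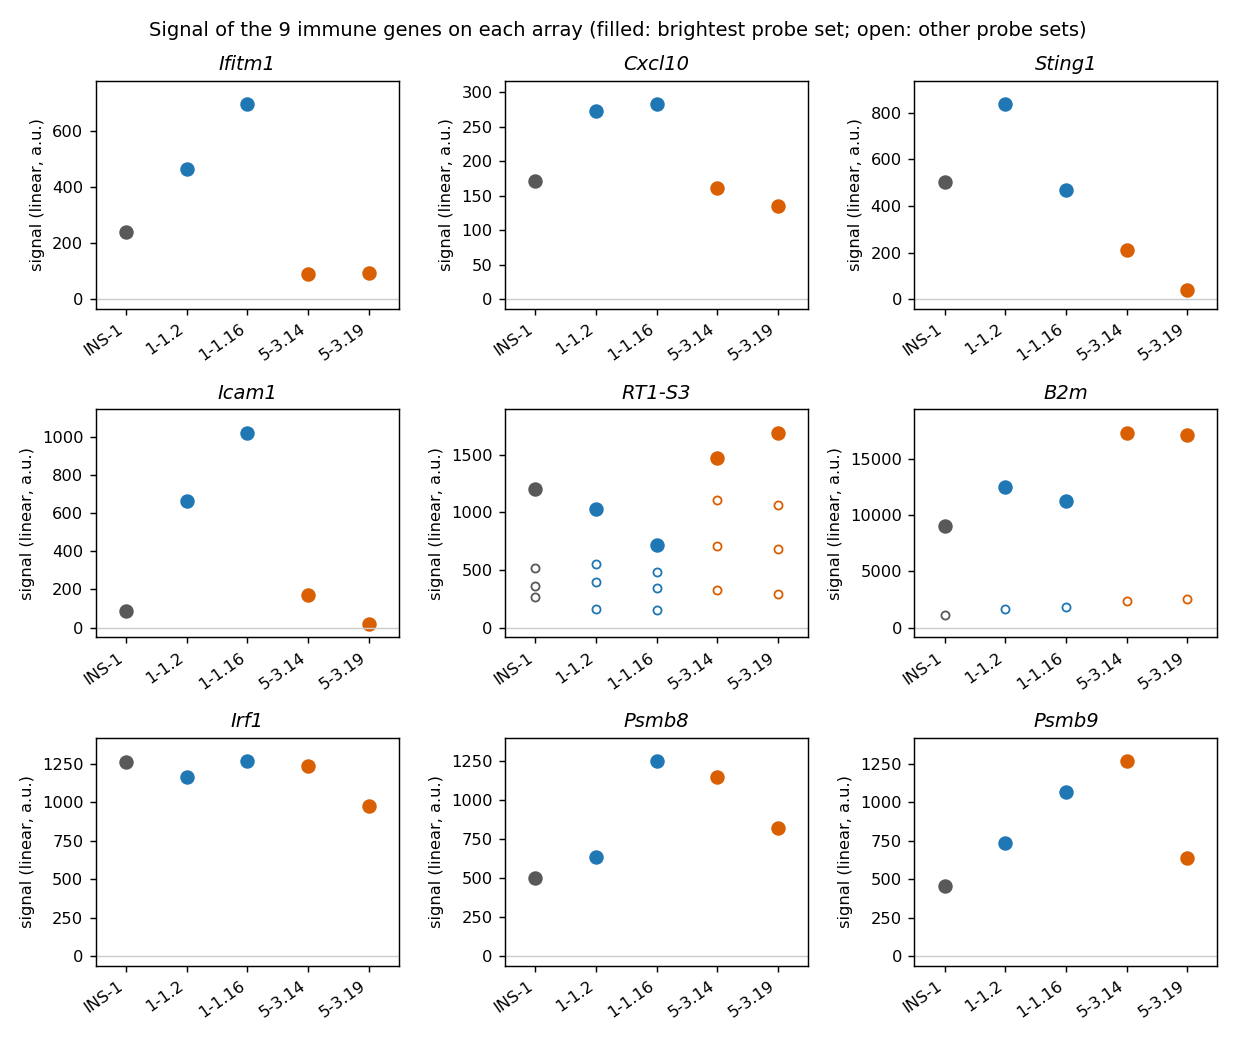
Linear signal of the 9 genes on the 5 arrays (horizontal axis: parental INS-1 in grey, set 1-1 in blue, set 5-3 in orange); filled points are the brightest probe set of a gene and open points its other probe sets. Ifitm1, Icam1 and Cxcl10 are higher in both 1-1 clones than on the other 3 arrays, B2m and RT1-S3 are highest in both 5-3 clones, and Irf1 stays between 973.8 and 1267.

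B2m and RT1-S3, which encode chains of class I, had more signal in both 5-3 clones than in both 1-1 clones, though no probe set passed. B2m encodes beta-2-microglobulin, the invariant light chain of class I. Its brighter probe set read 9091 in parental INS-1, 12491.6 and 11251.1 in clones 2 and 16, and 17362.1 and 17138.8 in clones 14 and 19. The 3 groups were ordered without overlap, with the parental line lowest. Set means were 11871 ± 877 and 17250 ± 158 (SD, n = 2 each), and set 5-3 was higher by 0.54 ± 0.16 on the log2 scale (SE), which did not pass (limma adjusted p = 0.200). The dimmer B2m probe set read 1118.8, then 1671.1 and 1851.3, then 2395 and 2558.2 in the same order of arrays, and kept the same order of groups. Its set difference was 0.49 (limma adjusted p = 0.349). Against the parental line, set 5-3 was higher by 0.92 and 1.13 on the log2 scale by the brighter and the dimmer probe set (limma adjusted p = 0.281 and 0.309).

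RT1-S3 encodes a nonclassical class I heavy chain. Rat class I genes are close in sequence, so part of these signals can come from other RT1 transcripts, and the 4 RT1-S3 probe sets are not separate evidence. The brightest read 1203.7 in parental INS-1, 1024.8 in clone 2, 717.7 in clone 16, 1472.5 in clone 14 and 1689.8 in clone 19. For all 4 probe sets both 5-3 clones were above both 1-1 clones and above the parental line. The log2 set differences were 0.86, 1.04, 0.88 and 0.90 from the brightest to the dimmest (limma adjusted p from 0.125 to 0.209). Their position against the parental line was less alike. Set 1-1 minus parental was −0.48 and −0.71 on the log2 scale for the brightest and the dimmest, and 0.01 for each of the other two.

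The inducible proteasome subunits Psmb8 and Psmb9 followed neither set. Psmb8 read 502.4 in parental INS-1, 633.3 in clone 2, 1245.9 in clone 16, 1147.2 in clone 14 and 817.2 in clone 19. Psmb9, another inducible catalytic subunit, read 453.3, 733.7, 1063.9, 1266.3 and 636.2 in the same order. For both genes every clone was above the parental array, clones 16 and 14 were the brightest, and the sets overlapped. Log2 differences from the parental line were 0.80 and 0.92 for Psmb8 and 0.93 and 0.95 for Psmb9 in sets 1-1 and 5-3, and none passed (limma adjusted p from 0.631 to 0.707). Between the sets they were 0.12 ± 0.36 and 0.02 ± 0.37 (SE). Psmb10, the remaining inducible subunit, did not share this order. It read 785.3 in parental INS-1, 839.8 and 789.7 in set 1-1 and 2142.5 and 1400.4 in set 5-3, a log2 set difference of 1.07 (limma adjusted p = 0.159). The constitutive subunits Psmb5 and Psmb7 are among those that the inducible ones replace, and read 6063 to 8681 and 9301 to 12626 over the 5 arrays. No value is given here for Psmb6, another catalytic subunit. Tap1, whose product carries peptides to class I, read 188.6 in parental INS-1, 246.6 and 508.4 in set 1-1 and 338.5 and 177 in set 5-3 by its brightest probe set. By that probe set clones 16 and 14 were again the brightest. Another Tap1 probe set, too dim to test, did not have this order: 18.5 in parental INS-1, 32 and 56.9 in set 1-1 and 18.4 and 36.6 in set 5-3. The Tap1 partner Tap2 was below the brightness limit on average, at 68.7 in parental INS-1 and 97.6 to 308.8 in the clones. Tapbp, which links the transporter to class I, read 798 to 1815.

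**Figure D2:**
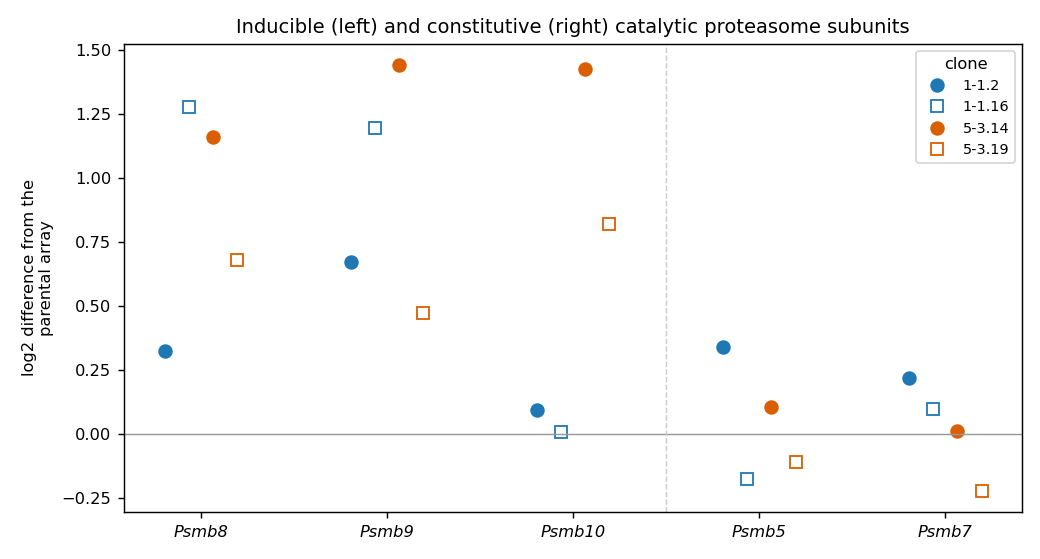
Log2 difference of each clone from the parental array (vertical axis) for the inducible subunit genes Psmb8, Psmb9 and Psmb10 and the constitutive Psmb5 and Psmb7 (horizontal axis); circles and squares are single clones, blue for set 1-1 and orange for set 5-3. All 4 clones are above 0 for Psmb8 and Psmb9, with clones 16 and 14 on top, while Psmb10 is highest in set 5-3.

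Irf1, the interferon-induced transcription factor that acts on many class I and proteasome genes, varied least of the 9 genes. It read 1265.9 in parental INS-1, 1167.1 and 1267 in clones 2 and 16, and 1233.9 and 973.8 in clones 14 and 19. The groups overlapped, and the log2 difference between the sets was −0.15 ± 0.23 (SE, limma adjusted p = 0.826).

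Counted over the 13 probe sets, limma called 1 between the sets, Ifitm1, where 0.42% of all tested probe sets were called (0.221% higher and 0.2% lower in set 5-3). At an unadjusted p under 0.05 there were 9 of 13, against 14.8% of all. Counting only the brightest probe set of each gene, it was 6 of 9. Both 5-3 clones lay above both 1-1 clones for 6 of 13 (background 22.1%) and below for 4 of 13 (background 24.5%). The 6 are the RT1-S3 and B2m probe sets, and the 4 are Ifitm1, Icam1, Cxcl10 and Sting1. By gene, 2 of 9 lay above and 4 of 9 below. Of all 6944 tested genes, 1504 lay above and 1809 below. Ifitm1, Icam1 and Cxcl10 were bright enough to test only through set 1-1, where they are high. Ifitm1 was too dim to test without clone 16, and Icam1 and Cxcl10 without either 1-1 clone. The genes were chosen with earlier results of these arrays known, so these shares are a description. Against the parental line limma called 0 of 13 in set 1-1 and 0 of 13 in set 5-3 (0.0105% of all probe sets in each, lower in both cases, and 0% higher), with 3 and 6 at an unadjusted p under 0.05 (8.47% and 7.8% of all). No other tool was run. Both clones were above the parental array for 7 of 13 in set 1-1 (background 39.1%) and for 8 of 13 in set 5-3 (background 31.5%). Both were below it for 2 of 13 in set 1-1 (background 35.5%) and for 4 of 13 in set 5-3 (background 34.2%). By gene, both clones of set 1-1 were above it for 6 of 9 and below it for 1. Both clones of set 5-3 were above it for 4 of 9 and below it for 4. Both comparisons use the same parental array.

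**Figure D3:**
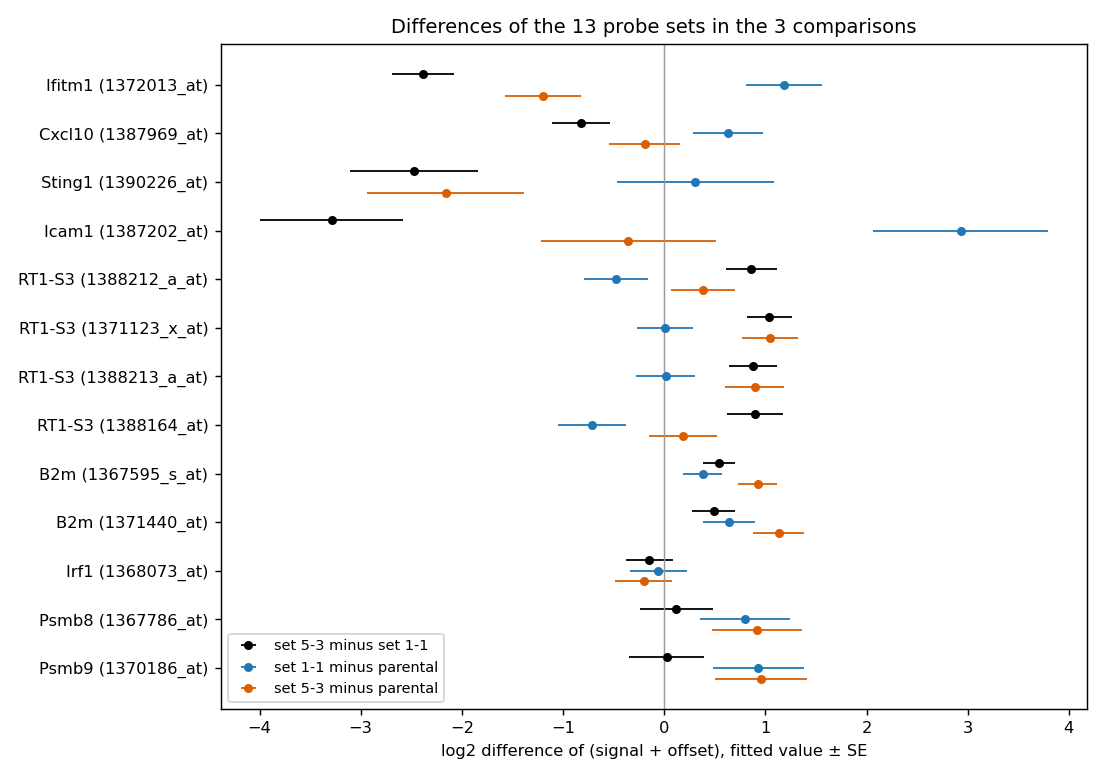
Fitted log2 difference with its SE (horizontal axis) for each of the 13 probe sets (rows) in the 3 comparisons: set 5-3 minus set 1-1 in black, set 1-1 minus parental in blue, set 5-3 minus parental in orange. The black points are negative for Ifitm1, Icam1, Sting1 and Cxcl10 and positive for the RT1-S3 and B2m probe sets, and Ifitm1 at −2.39 is the one called.

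Other genes of these pathways were read from lists, 1 probe set per gene. Ifit1, Ifit3, Mx1, Ifi27, Ifitm2, Cd74, Vcam1, Tbk1 and Irf3 are named below, with RT1-M3-1, RT1-CE12, RT1-CE10, Hfe and Cd1d1, although they were chosen after their values were seen. Of all 6944 tested genes, 34 were called between the sets, and the median log2 difference, set 5-3 minus set 1-1, was −0.05. Of the 6944 genes, 3071 were higher in set 5-3 than in set 1-1 and 3873 lower. Against the parental line 3752 were higher in set 1-1 and 3324 in set 5-3. Of the interferon receptor and signalling genes, 12 of 17 on the array were tested, 0 were called, and 6 were higher and 6 lower (median −0.01). The transcription factor gene Stat3 read 1758.2 in parental INS-1, 1593.3 and 1493.1 in set 1-1 and 1068.7 and 997.3 in set 5-3 (limma adjusted p = 0.278 between the sets). The phosphatase gene Ptpn2, a brake on JAK signalling, read 1410.6, then 1992.8 and 2793, then 1577.2 and 1441.4. The receptor gene Ifngr1 read 866 to 2567 and Irf7 305 to 582.

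Interferon-stimulated genes were split in direction between the sets. Of 26 on the array 17 were tested, 0 were called, and 8 were higher and 9 lower (median −0.04). Among the genes too dim to test, Ifit1 (112.6 to 181.6), Ifit3 (82.2 to 116.4) and Mx1 (19.7 to 80.7) were below the brightness limit on every array. The highest signal of the list was 17418.6, for Ifi27 in clone 14. Bst2, a tether that holds budding viruses, differed between sister clones: it read 1692.4 in parental INS-1, 4722.5 and 3938.4 in set 1-1, 6367 in clone 14 and 1325.4 in clone 19. Eif2ak2, the RNA-sensing kinase PKR, read 258.1, then 529 and 668, then 202.6 and 533.7. Parp9 was above the parental signal of 244.8 in every clone, at 368 to 551, and Oas1a was brightest in clone 14 at 444.1. Ifitm2, a close relative of Ifitm1, read 10905 in parental INS-1 and 11066 to 13107 in the clones, with a log2 set difference of −0.04.

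Of the class I pathway genes, 15 of 24 on the array were tested and 0 were called. Between the sets 10 were higher and 5 lower in set 5-3 (median 0.21), and against the single parental array 14 of 15 were higher in set 5-3 (median 0.39, against −0.02 for all tested genes) and 11 of 15 in set 1-1 (median 0.17, against 0.04). The heavy chain gene RT1-CE16 read 704.2 in parental INS-1, 710.5 and 950.1 in set 1-1 and 2036.3 and 1459.9 in set 5-3 (limma adjusted p = 0.164 between the sets). Not every tested heavy chain gene had this order. The sets overlapped for RT1-M3-1, RT1-CE12 and RT1-CE10, with log2 set differences of −0.12, 0.06 and 0.12. For the class I-like genes Hfe and Cd1d1 both 5-3 clones were above both 1-1 clones. Their log2 set differences were 0.66 and 0.53 (limma adjusted p = 0.341 and 0.393). Erap1, which trims peptides for class I, read 2628 to 3265 in the clones and 1418.5 in parental INS-1 by its brightest probe set. Of the class II pathway genes, 7 of 13 on the array were tested and 0 were called. The invariant chain gene Cd74 read 110 to 205 and the class II activator gene Ciita 187 to 253. The lysosomal protease gene Lgmn read 1595.8, then 1126.5 and 1087.9, then 2117.2 and 2731.9 (limma adjusted p = 0.118 between the sets).

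Genes of NF-kappaB and cytokine signalling were lower in set 5-3 for 13 of 18 tested genes and higher for 5 (median −0.19), with 0 called. Nfkb2, an NF-kappaB subunit gene, read 212.1 in parental INS-1, 327.1 and 653.4 in set 1-1 and 212.8 and 161.7 in set 5-3. Cebpb, a transcription factor of the acute phase response, read 660.8, then 1259.3 and 2200.4, then 729.3 and 743.4. Birc3, an apoptosis inhibitor, read 115.6, then 273 and 307.7, then 200.7 and 150.2. For these 3 genes both 1-1 clones were the brightest arrays (limma adjusted p between the sets 0.212, 0.167 and 0.367). Il15, a cytokine gene, was brightest in set 5-3: 635.2 in parental INS-1, 486.3 and 406.4 in set 1-1 and 1015.2 and 1098.8 in set 5-3 (limma adjusted p = 0.0949).

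Most chemokine genes were dim, and 3 of 18 on the array were tested with 0 called. Cxcl16 read 649.7 in parental INS-1, 634.2 in clone 2, 2023.8 in clone 16 and 324.6 and 318.6 in set 5-3 (limma adjusted p = 0.192 between the sets). Ackr3, a scavenging chemokine receptor, read 99.9 in parental INS-1, 424 and 495 in set 1-1 and 379.4 and 1020.8 in set 5-3, above the parental signal in every clone. Of the adhesion molecules, 15 of 28 on the array were tested and 0 were called. Between the sets 12 were higher and 3 lower in set 5-3 (median 0.31), the opposite of Icam1. Cd200, a surface protein that restrains myeloid cells, read 2231.8, then 1270.1 and 1285, then 3418.1 and 3347.4 (log2 difference 1.39, limma adjusted p = 0.0519). Bcam, a laminin receptor gene, read 1183.1, then 420.5 and 439.2, then 1357.4 and 3339.2 (limma adjusted p = 0.0841). L1cam, a neural adhesion molecule gene, read 149.9 and 123 in set 5-3 and 231.2 and 252 in set 1-1. Vcam1, often induced along with Icam1, read 3.90 to 11.9, near the floor of the array.

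**Figure D4:**
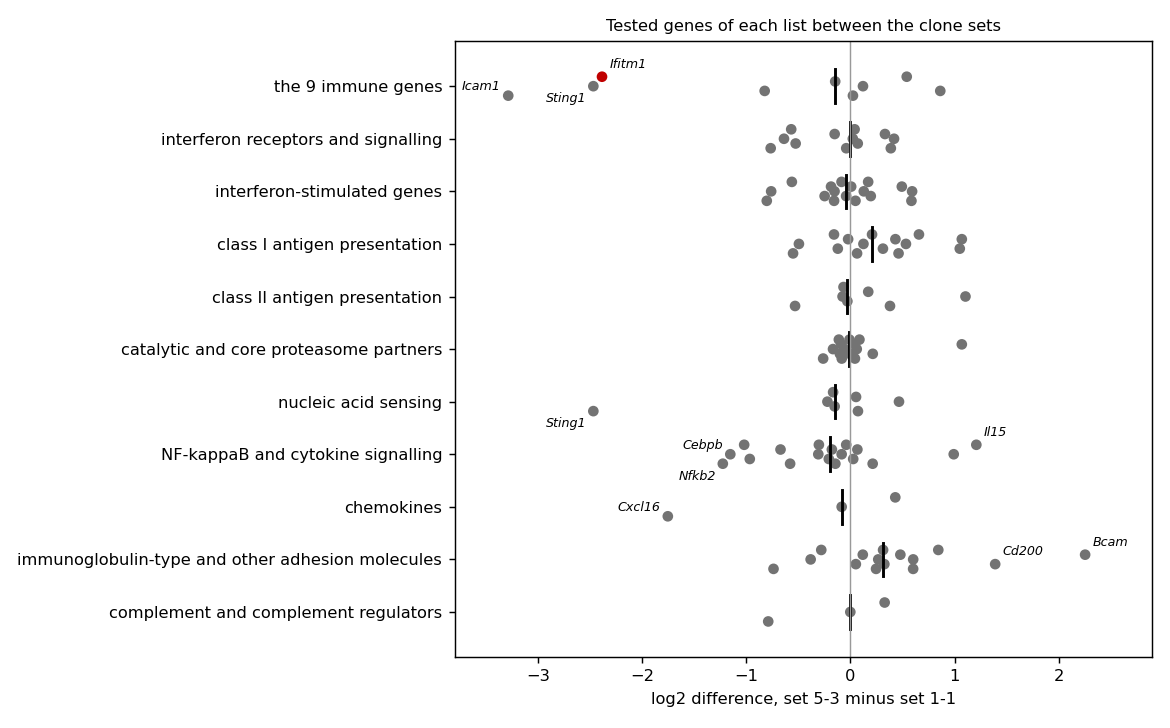
Log2 difference, set 5-3 minus set 1-1 (horizontal axis), for the tested genes of each list (rows); points are genes by their brightest probe set, red where the adjusted p is under 0.05, and the bar is the list's median. Ifitm1 is the single red point, and the medians run from −0.19 for NF-kappaB and cytokine signalling to 0.31 for adhesion molecules.

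Among the nucleic acid sensors around Sting1, of 7 tested genes 0 were called, apart from Sting1 the log2 set differences were between −0.22 and 0.47, and the kinase gene Tbk1, which Sting1 activates, read 866 to 1171. Its target Irf3 read 590 to 673. Of the complement genes 3 were tested and 0 called, and the decay-accelerating factor gene Cd55 read 198 to 738. Of 15 tested genes of the proteasome 0 were called, and apart from Psmb10 the log2 set differences lay between −0.26 and 0.21.

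Markers of leukocytes, which also express Icam1, Psmb8 and class I genes, were dim on average. Of 15 marker genes on the array 0 reached the brightness limit in their mean over the arrays, the brightest single value was 369.2, and the defining gene Ptprc read 6.70 to 67.6. The summed signal of the 16 probe sets was 1379 in parental INS-1, 1326 and 1378 in set 1-1 and 1001 and 1171 in set 5-3, so both 5-3 sums were below the other 3. Among these genes Coro1a, which was above the limit in parental INS-1 and set 1-1, read 207.7 in parental INS-1, 277.7 and 369.2 in set 1-1 and 38.6 and 130.6 in set 5-3. Without these Coro1a values the sums of the sets overlapped, so the order of the sums does not describe the markers as a group. The part of these markers in the differences of Ifitm1 and Icam1 was not tested. All 4 endothelial marker genes on the array were below the limit, with a highest value of 90.0. Of 7 fibroblast marker genes 1, Thy1, which neural cells also express, was bright enough to test.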

How the data were processed

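Total RNA of 5 cell samples was hybridised to rat expression arrays. The deposited table holds linear signal intensities, 1 for each probe set on each array, as judged from the values; the authors' software, background correction and detection calls were not given in the sources used. Signals were used as deposited. Of 15923 probe sets, 57 controls were left out. Names came from the platform table (12783 probe sets with 1 symbol, 312 with several, 2771 with none), and 12748 matched the GRCr8 gene table. Signals were taken as log2(signal + 21.8), the offset being the 10th percentile of positive signals, which understates the change of dim genes. Probe sets at or above the 40th percentile of mean log2 level were tested (9520). limma 3.58.1 in R 4.3.3 fitted 3 groups with an intensity trend and 2 residual degrees of freedom, which assumes that the parental array varies like clones of a set. p-values were adjusted by Benjamini-Hochberg over all tested probe sets, with a threshold of 0.05, and measure only the spread between these clones. The procedure was tested on simulated data. Named list genes were, but for those stated, taken from those past the threshold and up to 4 per list with the largest differences; partners of members were always given. The members and lists were chosen with earlier results of these data known. Alternatives covered scaling, offset, filter, variance model, probe set and leaving out each clone.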

Additional observations from a re-analysis of the deposited data

Results flagged for a closer look

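Ifitm1 differed between the clone sets in how it stood to the parental line: 2 of 2 clones of set 1-1 were above it and 2 of 2 clones of set 5-3 below it. The test of the difference itself gave −2.39 on the log2 scale (limma adjusted p = 0.0434 over 9520 probe sets).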

How the results depend on the processing

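Between the sets 40 probe sets were called; the count was 70 with median centring, 64 with a larger offset, 10 with no filter, 12 with the stricter filter, and 47 to 329 leaving out 1 clone. For set 1-1 against the parental line it was 1, and 0 with median centring, with no filter and without the intensity trend, and 5 to 96 leaving out 1 clone. For set 5-3 it was 1, and 5 with median centring, quantile normalization or cyclic loess, 4 with a larger offset, 0 with no filter or the stricter filter, and 14 to 189 leaving out 1 clone. Leaving out a clone leaves a set with 1, which is then assumed to vary like the other groups. Of 444 member values under the alternatives 426 kept direction and side of the threshold, 12 changed sign, 5 gained a call (Icam1 and Sting1) and 1 lost it (Ifitm1 with no filter); the cause was not tested. The sign changed for RT1-S3 in set 1-1 against the parental line with other probe sets (0.00954 and 0.0133 in place of −0.48). Leaving out 1 clone, the set difference ran from −0.36 to 0.60 for Psmb8, −0.46 to 0.51 for Psmb9 and −0.31 to 0.0207 for Irf1; set 1-1 against the parental line from −0.12 to 0.00123 for Irf1, −0.0908 to 0.11 and −0.0909 to 0.12 for RT1-S3 probe sets and −0.10 to 0.71 for Sting1; and set 5-3 against it from −1.51 to 0.80 for Icam1. Under the stricter filter Ifitm1, Icam1, Cxcl10, Sting1 and 2 RT1-S3 probe sets were too dim to test, and Ifitm1, Icam1 and Cxcl10 also in some fits that leave out a 1-1 clone. No paired analysis was possible because the clone numbers of the sets are not shared.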

Other observations

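A few genes of the same lists were below the brightness limit on average and had no test; they were chosen after their values were seen. Cxcl1, a neutrophil-attracting chemokine and a target of NF-kappaB, read 13.6 in parental INS-1, 227.3 and 176.1 in clones 2 and 16 of set 1-1, and 14.7 and 18.1 in clones 14 and 19 of set 5-3. Both 1-1 clones were above all other arrays, where the signal was under the offset of 21.8. Ifitm3, a relative of Ifitm1, read 41.2 in parental INS-1, 151.7 and 160.9 in set 1-1 and 39.0 and 89.6 in set 5-3. Serping1, the inhibitor of complement C1, read 352.1 in parental INS-1 and 13.6 to 38.2 in the clones. C1r, a complement protease gene, read 189.6 in parental INS-1, 126.2 and 33.0 in set 1-1 and 616.6 and 274.7 in set 5-3.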
